A study of Arabidopsis thaliana with 9 samples.

Results

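The chloroplast genome of Arabidopsis thaliana encodes core subunits of the photosynthetic complexes, of the plastid ribosome and of the plastid RNA polymerase, and their transcripts were followed here in pistils before and after pollination. The members were all probe sets of the ATH1 expression array whose platform annotation lists a plastid gene, which gave 77 of the 22746 probe sets tested. Of these, 69 list exactly 1 gene and 8 list both copies of a gene in the inverted repeat, the duplicated stretch of the plastid genome (ycf1, ycf2, ndhB, rpl2, rpl23, rps7 and rps12, the last with 2 probe sets). All 77 are for protein-coding genes, with 76 distinct gene names, and none is for a ribosomal or transfer RNA. By complex, the probe sets listing 1 gene comprised 15 for photosystem II, 5 for photosystem I, 6 for the cytochrome b6f complex, 6 for the ATP synthase, 1 for Rubisco, 10 for the NDH complex, 8 for the small and 7 for the large ribosomal subunit, 4 for the RNA polymerase and 7 for other proteins.

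Plastid genes are read in clusters, mostly as long RNAs that are cut and trimmed afterwards. In plants the plastid-encoded RNA polymerase, which resembles the bacterial enzyme and needs nucleus-encoded sigma factors, transcribes most photosynthesis genes, while a phage-type polymerase made from nuclear genes reads others, among them the rpoB cluster that encodes the first enzyme itself and accD. RNA-binding proteins imported from the cytosol then set much of how long each RNA lasts. A pistil carries green tissue with chloroplasts in its ovary walls and style, whereas pollen tubes hold small unpigmented plastids.

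Every array was made from pistils of ms1 (male sterile 1) plants in the Ler-0 ecotype at floral stage 14, which make no pollen of their own, with 100 pistils in a collection and 3 arrays, labelled biological replicates, in each of 3 groups. The mutant-pollen group received pollen of the myb97-1 myb101-4 myb120-3 triple mutant in Col-0, which lacks 3 MYB transcription factors of the pollen tube, and was grown on for 8 hours. The wild-type-pollen group received Col-0 pollen and was likewise grown on for 8 hours, and the unpollinated group was collected with no pollination. All pistils carried the ms1 mutation, so no group has a fertile pistil, and pistil and pollen differ in ecotype. No time of collection is labelled for the unpollinated pistils, so pollination and the hours of growth and light that went with it cannot be told apart. The comparisons ask how plastid transcripts differ after pollination, and whether that depends on the pollen's MYB genes.

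The deposited values were linear intensities per probe set, normalised by the authors, and log2 of them was tested with limma across all probe sets, with a call at an adjusted p (Benjamini-Hochberg) under 0.05. The median intensity of an array was 109.9 to 114.6 with mutant pollen, 112.2 to 117 with wild-type pollen and 103.3 to 104.7 in unpollinated pistils. RNA from pollen tubes was part of the pollinated samples: all 6 pollen and pollen tube markers measured, of 9 listed, were called higher in both groups, and their summed intensity was 5805.2 to 6989.9 with mutant pollen, 6415.2 to 7670 with wild-type pollen and 127.9 to 158.2 in unpollinated pistils. Of 15 pistil markers 3 were measured, with summed intensities of 367.1 to 389.5, 358.9 to 393.9 and 578.8 to 830.5 in the same order; SPT was called higher in both pollinated groups, SLR1 lower in both, and INO in neither. The single measured marker of 5 for petal, stamen and tapetum, A9, had intensities of 10.3 to 11 with mutant pollen, 10.8 to 11.2 with wild-type pollen and 11.5 to 13.1 in unpollinated pistils, and was called lower with mutant pollen (−0.23, adjusted p = 0.0294) and not with wild-type pollen (−0.17, adjusted p = 0.0932). No marker was listed at 0. The part of tube RNA in the results below was not tested, and in such bulk samples fewer cells of a type and less RNA per cell cannot be told apart. The labelling kit primes from the poly(A) tail, which most intact plastid mRNAs lack, and how evenly it captured these transcripts was not tested.

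Most plastid probe sets were lower after pollination. With mutant pollen 47 of the 77 were called lower than in unpollinated pistils (61%, against 19.2% of all probe sets) and 2 were called higher (22.3% of all). With wild-type pollen 46 were called lower (59.7%, against 20.2% of all probe sets) and 2 higher (23.4% of all). The median log2 difference of the 77 was −0.49 with mutant pollen and −0.37 with wild-type pollen, where the medians over all probe sets were 0.011 and 0.004. Differences ranged from −2.03 to 0.60 with mutant pollen and from −1.68 to 0.74 with wild-type pollen, and 70 and 67 of the 77 were below 0. Both comparisons use the same 3 unpollinated arrays. The counts by complex and by transcription unit below are to be read beside these shares of all probe sets. They are 19.2% and 20.2% lower, and 22.3% and 23.4% higher. In 52 members all 3 mutant-pollen arrays lay below all unpollinated arrays (23.4% of all probe sets did so) and in 3 all lay above (27.1%), and with wild-type pollen these counts were 42 (24.9%) and 3 (27.9%).

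**Figure D1:**
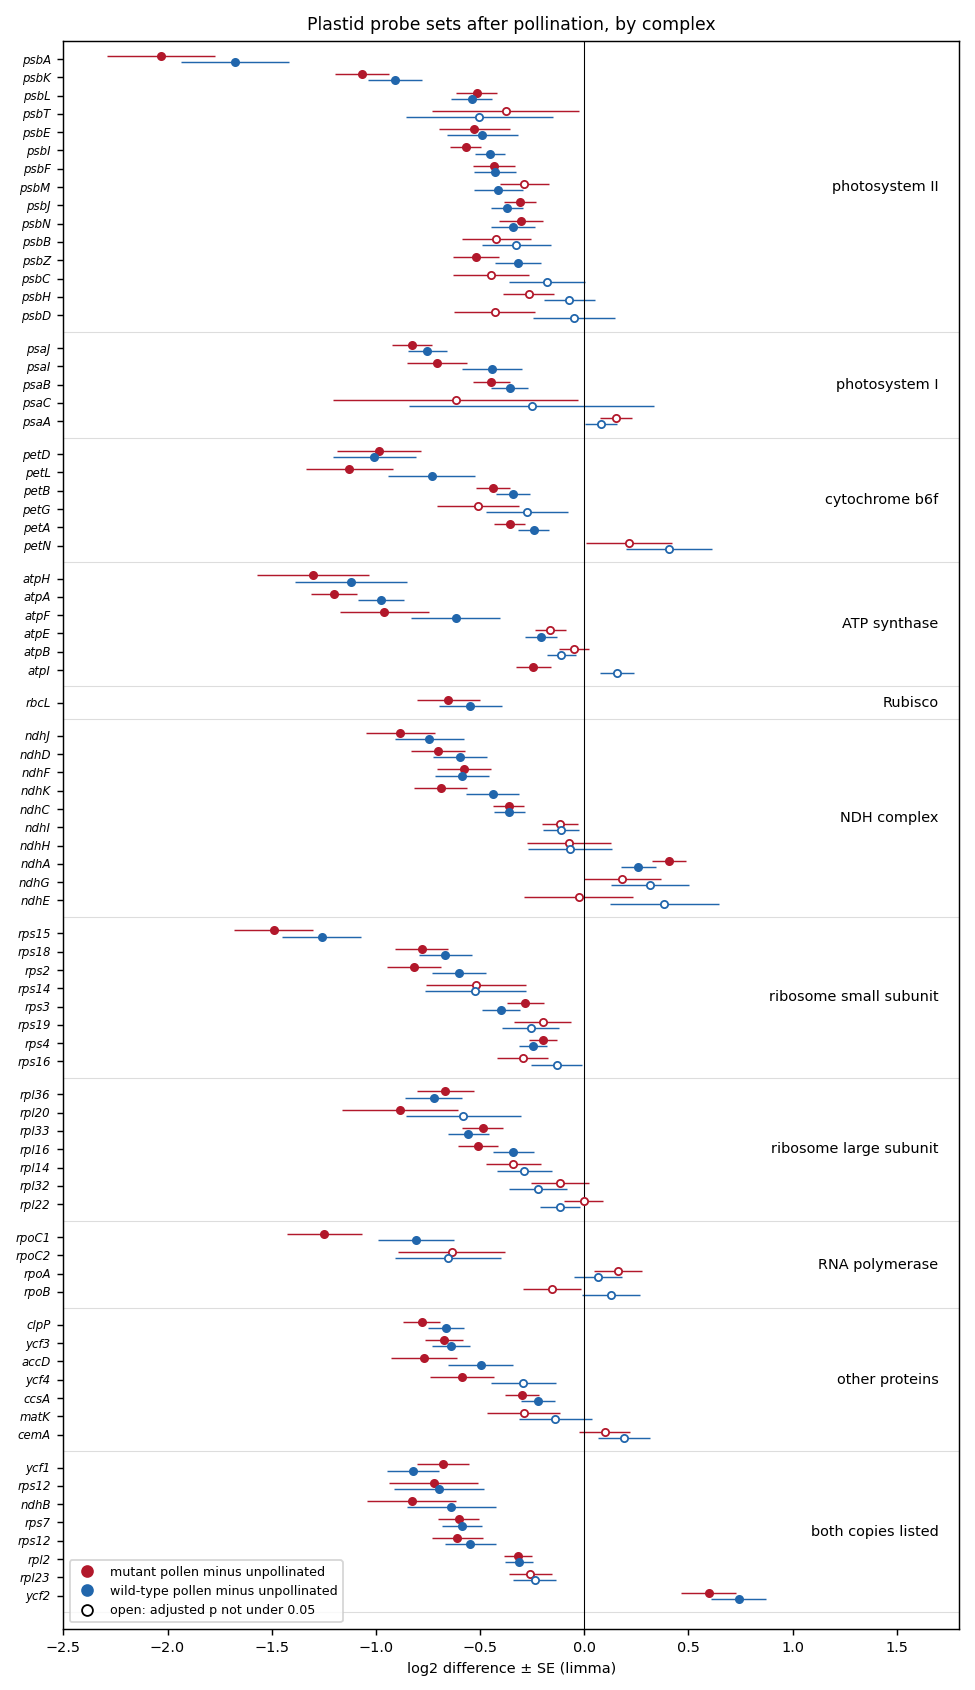
Log2 difference of each plastid probe set from unpollinated pistils, with mutant pollen (red, upper point) and with wild-type pollen (blue, lower point), grouped by complex. Points are limma estimates with SE from 3 arrays a group, filled where the adjusted p was under 0.05; most points lie left of 0, psbA lies farthest left, and only ndhA and ycf2 are filled on the right.

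Photosystem II, which splits water, had 9 of its 15 probe sets lower with mutant pollen and 10 of 15 with wild-type pollen, none higher, and all 15 differences were below 0 in both (medians −0.43 and −0.41). The gene for the reaction centre protein that is damaged by light and replaced fastest, psbA (probe set 245047_at), had log2 intensities of 8.86, 9.48 and 8.97 with mutant pollen, 9.78, 9.11 and 9.49 with wild-type pollen and 10.61, 11.16 and 11.64 in unpollinated pistils. All 6 pollinated arrays lay below all 3 unpollinated ones, although the unpollinated values spread over a full log2 unit. The log2 difference of psbA was −2.03 ± 0.26 (SE) with mutant pollen, a 4.09-fold fall (adjusted p = 0.000153), and −1.68 ± 0.26 with wild-type pollen, a 3.20-fold fall (adjusted p = 0.000489). The second largest difference in this complex was that of psbK, a small subunit, at −1.07 ± 0.13 with mutant pollen (adjusted p = 0.000108) and −0.91 ± 0.13 with wild-type pollen (adjusted p = 0.000289). psbD, for the partner of the psbA protein in the reaction centre, had the smallest difference of the complex with wild-type pollen but lay near its median with mutant pollen, with log2 intensities of 8.29, 8.46 and 8.19 with mutant pollen, 8.91, 8.42 and 8.75 with wild-type pollen and 8.91, 9.06 and 8.26 in unpollinated pistils. The psbD groups overlapped, and neither the difference with mutant pollen (−0.43 ± 0.20, adjusted p = 0.103) nor that with wild-type pollen (−0.05 ± 0.20, adjusted p = 0.859) was called.

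The other photosystem II genes moved less. psbB and psbC, for the inner antenna proteins, had differences of −0.42 and −0.45 with mutant pollen and −0.33 and −0.18 with wild-type pollen, none of them called. psbE and psbF, for the cytochrome subunits, were called lower in both, at −0.53 and −0.43 with mutant pollen and −0.49 and −0.43 with wild-type pollen. The small subunits psbI, psbJ, psbL and psbZ were called lower in both, between −0.57 and −0.31 with mutant pollen and between −0.54 and −0.32 with wild-type pollen. psbM, another small subunit, was called lower with wild-type pollen (−0.41) and not with mutant pollen (−0.29, adjusted p = 0.0731), and that contrast between the pollens was itself not called (0.13, adjusted p = 0.998). psbN, an assembly factor rather than a subunit, was called lower in both, at −0.30 and −0.34. The calls for psbE, psbN, psbZ and psbM were lost under at least 1 alternative, psbE with wild-type pollen under 10 of 16. psbH and psbT, small subunits, were not called, and psbT varied between 7.88 and 9.42 in the unpollinated arrays alone.

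Photosystem I had 3 of 5 probe sets lower in both groups, with medians of −0.62 with mutant pollen and −0.36 with wild-type pollen. The mutant-pollen median was the value of psaC, which was itself poorly measured (−0.62 ± 0.59, adjusted p = 0.434). The mutant-pollen median moved to −0.39 without mutant-pollen array 1 and to −0.40 without unpollinated array 3, and the wild-type-pollen median to −0.54 without wild-type-pollen array 1. psaJ, a small membrane subunit (244967_at), had 10.19, 10.06 and 10.06 with mutant pollen, 10.36, 10.12 and 10.05 with wild-type pollen and 10.83, 10.98 and 10.98 in unpollinated pistils. Both pollinated groups of psaJ lay well below the unpollinated arrays, with differences of −0.83 ± 0.10 with mutant pollen (adjusted p = 7.16e-05) and −0.75 ± 0.10 with wild-type pollen (adjusted p = 0.000123). The small subunit gene psaI was also called lower, at −0.71 and −0.44. The large reaction centre proteins of this complex are made from neighbouring genes, psaA and psaB, and only psaB was called, at −0.45 ± 0.09 with mutant pollen and −0.36 ± 0.09 with wild-type pollen. The psaB calls and the wild-type-pollen call of psaI were lost when quantile normalization was repeated, and that of psaI also without unpollinated array 1 or 3 or without wild-type-pollen array 2 or 3. psaA (245007_at) had 8.42, 8.33 and 8.39 with mutant pollen, 8.40, 8.22 and 8.30 with wild-type pollen and 8.18, 8.19 and 8.31 in unpollinated pistils. Its mutant-pollen arrays all lay above the unpollinated ones, but the differences of 0.15 ± 0.08 (adjusted p = 0.134) and 0.08 ± 0.08 (adjusted p = 0.428) were not called. psaC, for the subunit that holds the terminal iron-sulphur clusters, was the member with the widest spread in every group, with SDs of 0.848, 0.864 and 1.07 over mutant-pollen, wild-type-pollen and unpollinated arrays (n = 3 each), and no difference could be resolved.

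The cytochrome b6f complex links the photosystems, and 4 of its 6 probe sets were lower in both groups (medians −0.47 with mutant pollen and −0.31 with wild-type pollen). petD, for subunit IV (244977_at), had 5.59, 5.75 and 5.37 with mutant pollen, 5.81, 5.32 and 5.52 with wild-type pollen and 6.07, 6.88 and 6.72 in unpollinated pistils. No pollinated array reached the lowest unpollinated one, and petD was 1.98-fold lower with mutant pollen (−0.99 ± 0.20, adjusted p = 0.00288) and 2.01-fold lower with wild-type pollen (−1.01 ± 0.20, adjusted p = 0.00237). The small subunit gene petL was called lower, at −1.13 ± 0.21 and −0.73 ± 0.21, as were petB, for the cytochrome b6 protein (−0.44 and −0.34), and petA, for cytochrome f (−0.36 and −0.24). The wild-type-pollen calls for petL and petA were lost when wild-type-pollen array 2 or 3 was left out, that of petL also without unpollinated array 3 and that of petA also without unpollinated array 1 or 2 and with quantile normalization repeated. petG, a small subunit, was not called (−0.51 and −0.28). petN, a further small subunit (245000_at), had 6.87, 7.25 and 7.12 with mutant pollen, 7.59, 7.04 and 7.19 with wild-type pollen and 6.53, 6.72 and 7.35 in unpollinated pistils. These groups overlapped, and neither difference was called (0.21, adjusted p = 0.444, and 0.41, adjusted p = 0.141).

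**Figure D2:**
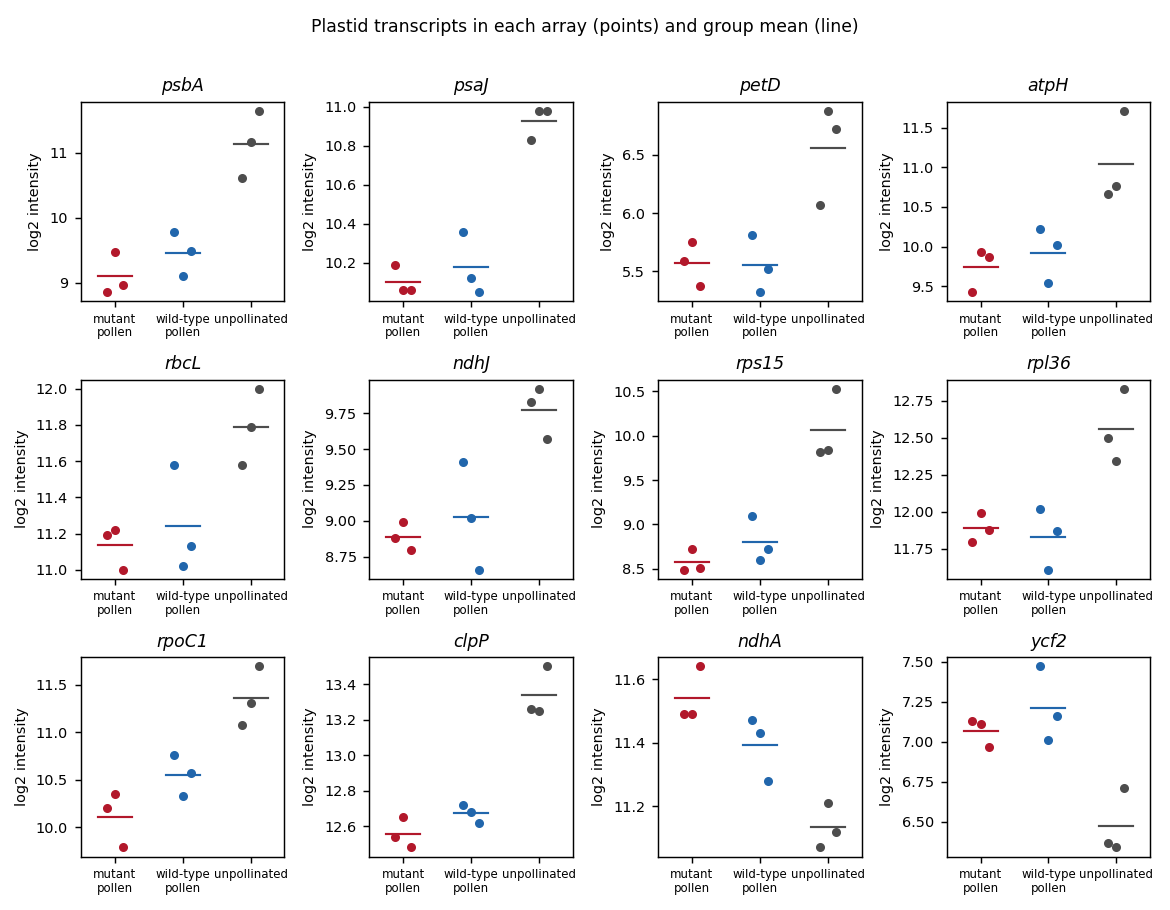
Log2 intensity of 12 plastid probe sets in each array (points) with the group mean (line), for mutant pollen, wild-type pollen and unpollinated pistils; each panel has its own vertical axis, which does not start at 0. In 10 panels the pollinated means lie below the unpollinated mean, and in the panels of ndhA and ycf2 all 6 pollinated arrays lie above all unpollinated arrays.

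The ATP synthase had 4 of 6 probe sets lower with mutant pollen and 4 of 6 with wild-type pollen, of which atpH, atpA and atpF were lower in both (medians −0.60 with mutant pollen and −0.41 with wild-type pollen). atpH, for the ring subunit that turns in the membrane (245026_at), had 9.43, 9.93 and 9.87 with mutant pollen, 10.22, 9.54 and 10.02 with wild-type pollen and 10.66, 10.77 and 11.71 in unpollinated pistils. The pollinated arrays all lay below the unpollinated ones, and atpH was 2.47-fold lower with mutant pollen (−1.30 ± 0.27, adjusted p = 0.00314) and 2.17-fold lower with wild-type pollen (−1.12 ± 0.27, adjusted p = 0.00695). atpA, for the alpha subunit of the catalytic head, was measured with less spread, at −1.20 ± 0.11 with mutant pollen (adjusted p = 1.54e-05) and −0.98 ± 0.11 with wild-type pollen (adjusted p = 6.24e-05). atpF, for a stalk subunit, was called at −0.96 ± 0.21 and −0.62 ± 0.21, of which the wild-type-pollen call was lost under 9 of 16 alternatives. atpB and atpE, for the beta and epsilon subunits, which are read from their own promoter, showed small differences of −0.05 and −0.16 with mutant pollen and −0.11 and −0.21 with wild-type pollen. Of these only atpE with wild-type pollen was called (adjusted p = 0.0497), and it was lost under 11 of 16 alternatives. Both genes were bright, with log2 intensities of 13.89 to 14.10 for atpB and 14.09 to 14.46 for atpE over all arrays. The highest of any probe set was 14.73. Whether brightness or the promoter bears on the small differences was not tested.

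atpI, for the a subunit that channels protons past the ring (244995_at), had the only positive difference of the ATP synthase with wild-type pollen. It had 7.28, 7.25 and 7.10 with mutant pollen, 7.71, 7.63 and 7.49 with wild-type pollen and 7.48, 7.42 and 7.46 in unpollinated pistils. The mutant-pollen arrays all lay below the unpollinated ones and the wild-type-pollen arrays all above them, the only member of 77 with that arrangement. How many of all probe sets had it was not counted. The difference was −0.24 ± 0.08 with mutant pollen (adjusted p = 0.0358) and 0.16 ± 0.08 with wild-type pollen (adjusted p = 0.15, not called). The mutant-pollen call was lost when any 1 unpollinated array, wild-type-pollen array 2, or mutant-pollen array 2 or 3 was left out, with adjusted p up to 0.133.

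Rubisco, the enzyme that fixes carbon dioxide, takes its large subunit from the plastid gene rbcL (245015_at). rbcL had 11.19, 11.22 and 11 with mutant pollen, 11.58, 11.02 and 11.13 with wild-type pollen and 11.58, 11.79 and 12 in unpollinated pistils. Wild-type-pollen array 1 equalled the lowest unpollinated array, while the mutant-pollen arrays lay below. rbcL was called lower with mutant pollen (−0.65 ± 0.15, 1.57-fold, adjusted p = 0.00591) and with wild-type pollen (−0.55 ± 0.15, 1.46-fold, adjusted p = 0.0141). The wild-type-pollen call was lost without wild-type-pollen array 2 (adjusted p = 0.061) or 3 (adjusted p = 0.0538).

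The NDH complex, which returns electrons to the photosynthetic chain, had calls in both directions, with 5 of 10 probe sets lower and 1 higher in both groups (medians −0.24 in each). ndhJ, for a subunit outside the membrane (245010_at), had 8.88, 8.99 and 8.80 with mutant pollen, 9.41, 9.02 and 8.66 with wild-type pollen and 9.83, 9.92 and 9.57 in unpollinated pistils. No pollinated array reached the unpollinated ones, with differences of −0.88 ± 0.17 (adjusted p = 0.0018) and −0.74 ± 0.17 (adjusted p = 0.0046). ndhK, ndhC, ndhD and ndhF, for further subunits, were also called lower, between −0.70 and −0.36 with mutant pollen and between −0.60 and −0.36 with wild-type pollen. Of these ndhF was dim, with intensities of 19.7 to 36.5 over all arrays. Its mean log2 of 4.65 was the lowest of the 77 members, against a 25th percentile of 4.29 over all probe sets. The wild-type-pollen call for ndhK was lost without unpollinated array 2 or wild-type-pollen array 2 or 3.

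ndhA, for a membrane subunit (244936_at), had 11.49, 11.49 and 11.64 with mutant pollen, 11.47, 11.43 and 11.28 with wild-type pollen and 11.07, 11.21 and 11.12 in unpollinated pistils. All pollinated arrays lay above all unpollinated ones, and ndhA rose by 0.41 ± 0.08 with mutant pollen (adjusted p = 0.00272) and by 0.26 ± 0.08 with wild-type pollen (adjusted p = 0.026). The wild-type-pollen call was lost when array medians were made equal (0.12, adjusted p = 0.27) and when unpollinated array 1 or 3, or wild-type-pollen array 1 or 2, was left out, with adjusted p of 0.0506 to 0.0943. ndhE, for another membrane subunit (244933_at), had the highest wild-type-pollen difference of the complex, with 7.71, 8.30 and 7.34 with mutant pollen, 8.74, 7.87 and 7.97 with wild-type pollen and 7.68, 7.73 and 8.02 in unpollinated pistils. The ndhE groups overlapped, and the differences of −0.03 ± 0.26 (adjusted p = 0.946) and 0.38 ± 0.26 (adjusted p = 0.266) were not called. ndhG, ndhH and ndhI were not called either, at 0.18, −0.07 and −0.12 with mutant pollen and 0.32, −0.07 and −0.11 with wild-type pollen.

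For the small ribosomal subunit, 5 of 8 probe sets were lower in both groups (medians −0.41 with mutant pollen, or −0.26 without unpollinated array 3, and −0.46 with wild-type pollen). rps15 (244938_at) had 8.49, 8.72 and 8.51 with mutant pollen, 9.09, 8.60 and 8.72 with wild-type pollen and 9.82, 9.84 and 10.53 in unpollinated pistils. Both pollinated groups lay below the unpollinated arrays, and rps15 was 2.81-fold lower with mutant pollen (−1.49 ± 0.19, adjusted p = 0.000147) and 2.40-fold lower with wild-type pollen (−1.26 ± 0.19, adjusted p = 0.000397), second to psbA among all members. rps2, rps18, rps3 and rps4 were also called lower, the last at only −0.20 and −0.25. When quantile normalization was repeated, the rps4 difference with mutant pollen turned to 0.05 (adjusted p = 0.623), its call with wild-type pollen was lost (−0.02, adjusted p = 0.837) and so was the mutant-pollen call of rps3. The rps4 calls in both groups and the mutant-pollen call of rps3 were also lost when single arrays were left out, that of rps4 with wild-type pollen without wild-type-pollen array 2. rps16 (245049_at), with the smallest wild-type-pollen difference, had 7.39, 7.76 and 7.61 with mutant pollen, 7.90, 7.68 and 7.67 with wild-type pollen and 7.83, 7.72 and 8.10 in unpollinated pistils. Its groups overlapped, and it was not called (−0.30, adjusted p = 0.0811, and −0.13, adjusted p = 0.422), nor were rps14 and rps19.

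For the large ribosomal subunit, 4 of 7 probe sets were lower with mutant pollen and 3 of 7 with wild-type pollen (medians −0.49 and −0.34). rpl36 (244980_at) had 11.80, 11.99 and 11.88 with mutant pollen, 12.02, 11.61 and 11.87 with wild-type pollen and 12.50, 12.34 and 12.83 in unpollinated pistils. All pollinated values were below the unpollinated ones, with differences of −0.67 ± 0.14 (adjusted p = 0.00299) and −0.72 ± 0.14 (adjusted p = 0.00172). rpl33 and rpl16 were called lower in both, and rpl20 with mutant pollen only (−0.88, adjusted p = 0.0267, against −0.58, adjusted p = 0.118), where the pollens themselves were not called different (−0.30, adjusted p = 0.998). The rpl20 call was lost with the trended robust variance and without unpollinated array 3 or mutant-pollen array 1 or 3, and the wild-type-pollen call of rpl16 without wild-type-pollen array 2 or 3 or with quantile normalization repeated. rpl22 (244985_at) had 12.36, 12.44 and 12.32 with mutant pollen, 12.46, 12.18 and 12.14 with wild-type pollen and 12.30, 12.43 and 12.40 in unpollinated pistils. Its groups overlapped throughout, at −0.003 ± 0.09 (adjusted p = 0.982) and −0.12 ± 0.09 (adjusted p = 0.347).

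Of the 4 genes for the core of the plastid RNA polymerase, only rpoC1 was called, lower in both groups. That is 25%, near the 19.2% and 20.2% of all probe sets called lower with mutant and wild-type pollen. rpoC1 (244998_at) had 10.20, 10.35 and 9.79 with mutant pollen, 10.76, 10.33 and 10.57 with wild-type pollen and 11.08, 11.31 and 11.69 in unpollinated pistils. The pollinated arrays all lay below the unpollinated ones, with differences of −1.25 ± 0.18 (2.37-fold, adjusted p = 0.000376) and −0.81 ± 0.18 (1.75-fold, adjusted p = 0.00485). rpoC2, which with rpoC1 makes the subunit that is single in bacteria, was not called at −0.64 ± 0.26 (adjusted p = 0.0692) and −0.65 ± 0.26 (adjusted p = 0.0611). rpoB, for the beta subunit (244999_at), had 5.02, 5.24 and 4.93 with mutant pollen, 5.51, 5.21 and 5.31 with wild-type pollen and 4.95, 5.22 and 5.48 in unpollinated pistils. The rpoB groups overlapped, and the differences of −0.15 ± 0.14 (adjusted p = 0.41) and 0.13 ± 0.14 (adjusted p = 0.493) were not called. rpoA, for the alpha subunit, was not called either (0.16 and 0.07). The median over the 4, −0.40 with mutant pollen and −0.29 with wild-type pollen, lay in the middle of a wide gap and moved to −0.19 and −0.10 without unpollinated array 3, and with wild-type pollen also to −0.18 without wild-type-pollen array 2 and to −0.44 without wild-type-pollen array 1.

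Among 7 genes for other proteins, 5 were lower with mutant pollen and 4 with wild-type pollen (medians −0.59 and −0.29, with wild-type pollen −0.18 without wild-type-pollen array 2 and −0.45 without wild-type-pollen array 1). clpP, for a subunit of the stromal Clp protease (244971_at), had 12.54, 12.65 and 12.48 with mutant pollen, 12.72, 12.68 and 12.62 with wild-type pollen and 13.26, 13.25 and 13.50 in unpollinated pistils. Both pollinated groups lay far below the unpollinated arrays for their spread, at −0.78 ± 0.09 (adjusted p = 6.33e-05) and −0.66 ± 0.09 (adjusted p = 0.000176). ycf3, for a photosystem I assembly factor, was called at −0.67 and −0.64, accD, for a subunit of the acetyl-CoA carboxylase of fatty acid synthesis, at −0.77 and −0.50, and ccsA, for a protein of cytochrome c maturation, at −0.30 and −0.22. ycf4, for another photosystem I assembly factor, was called with mutant pollen (−0.59, adjusted p = 0.0117) and not with wild-type pollen (−0.29, adjusted p = 0.152), and the pollens were not called different. The calls for accD with wild-type pollen, ccsA in both and ycf4 were lost under at least 1 alternative. matK, for an intron maturase, was not called (−0.29 and −0.14). cemA, for an envelope membrane protein (245019_at), had 10.55, 10.42 and 10.12 with mutant pollen, 10.65, 10.38 and 10.34 with wild-type pollen and 10.25, 10.38 and 10.17 in unpollinated pistils, with overlapping groups and no call (0.10, adjusted p = 0.567, and 0.19, adjusted p = 0.244).

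Each of the 8 probe sets listing both copies of an inverted-repeat gene measures the sum of copies that the array cannot separate, and 6 were lower and 1 higher in both groups (medians −0.61 with mutant pollen and −0.57 with wild-type pollen). ycf1, for a protein of the import machinery in the inner envelope, was called at −0.68 and −0.82, the ribosomal protein genes rps7 at −0.60 and −0.59 and rpl2 at −0.32 and −0.31, and ndhB, for an NDH subunit, at −0.83 and −0.64. The ndhB probe set was dim, with intensities of 20 to 48.8 over all arrays. The rps12 probe sets, for a ribosomal protein whose RNA is joined from separate transcripts, were both called, at −0.72 and −0.61 with mutant pollen and −0.70 and −0.55 with wild-type pollen. rpl23 was not called (−0.26 and −0.24). The rpl2 calls were lost when quantile normalization was repeated, the wild-type-pollen call of ndhB with only the compared groups fitted or when array 2 or 3 of the unpollinated or the wild-type-pollen group was left out, and those of the first rps12 probe set without unpollinated array 1 or 2, among others. The exception, named after its values were seen, was ycf2 (244989_s_at), for a large protein of an envelope ATPase complex, with 7.13, 7.11 and 6.97 with mutant pollen, 7.47, 7.01 and 7.16 with wild-type pollen and 6.37, 6.34 and 6.71 in unpollinated pistils. All pollinated arrays lay above the unpollinated ones, and ycf2 rose 1.51-fold with mutant pollen (0.60 ± 0.13, adjusted p = 0.00462) and 1.67-fold with wild-type pollen (0.74 ± 0.13, adjusted p = 0.0012), calls that held under all 16 alternatives.

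Set side by side, the genes for photosynthesis and the NDH complex had 26 of 43 probe sets lower with mutant pollen (60.5%) and 27 of 43 with wild-type pollen (62.8%). Those for ribosome and RNA polymerase, with matK, had 10 of 20 (50%) and 9 of 20 (45%). Both classes hold only probe sets listing 1 gene, so inverted-repeat genes were left out of them. Of those left out, rps7, rpl2 and both rps12 probe sets were called lower in both groups and rpl23 in neither. The left-out NDH gene, ndhB, was called lower in both. Of all probe sets, 19.2% and 20.2% were lower. The class medians were close, −0.45 and −0.41 with mutant pollen and −0.36 and −0.37 with wild-type pollen, and the contrast between these classes was not tested.

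Genes that textbook maps place in 1 transcription unit did not all move alike. The psbE, psbF, psbL and psbJ genes did, with all 4 lower in both groups and differences within −0.53 to −0.31 with mutant pollen and −0.54 to −0.37 with wild-type pollen. In the petL, petG, psaJ, rpl33 and rps18 unit 4 of 5 were lower in both, between −1.13 and −0.49 with mutant pollen and between −0.75 and −0.28 with wild-type pollen. ndhC, ndhK and ndhJ were all lower in both.

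The unit of rps2, atpI, atpH, atpF and atpA was wide, from −1.30 to −0.24 with mutant pollen and from −1.12 to 0.16 with wild-type pollen, since atpI stood apart from its 4 neighbours. In the unit of ndhH, ndhA, ndhI, ndhG, ndhE, psaC and ndhD, the 2 called genes went opposite ways in both groups, ndhD lower and ndhA higher, with ranges of −0.70 to 0.41 and −0.60 to 0.38. Each call is 14.3% of the unit. Of all probe sets, 19.2% and 20.2% were lower with mutant and wild-type pollen, and 22.3% and 23.4% higher, so these shares do not set the unit apart. In the psbB, psbT, psbH, petB and petD unit 2 of 5 were lower in both (petB and petD), and in the rpoB, rpoC1 and rpoC2 unit 1 of 3. There rpoB was dim, with intensities of 30.5 to 45.6. rpoC2 missed the limma call at −0.64 with mutant pollen (adjusted p = 0.0692) and −0.65 with wild-type pollen (adjusted p = 0.0611). The probe sets of a unit sit on different stretches of the RNA and differ in spread, and whether the RNA is cut between them was not measured.

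**Figure D3:**
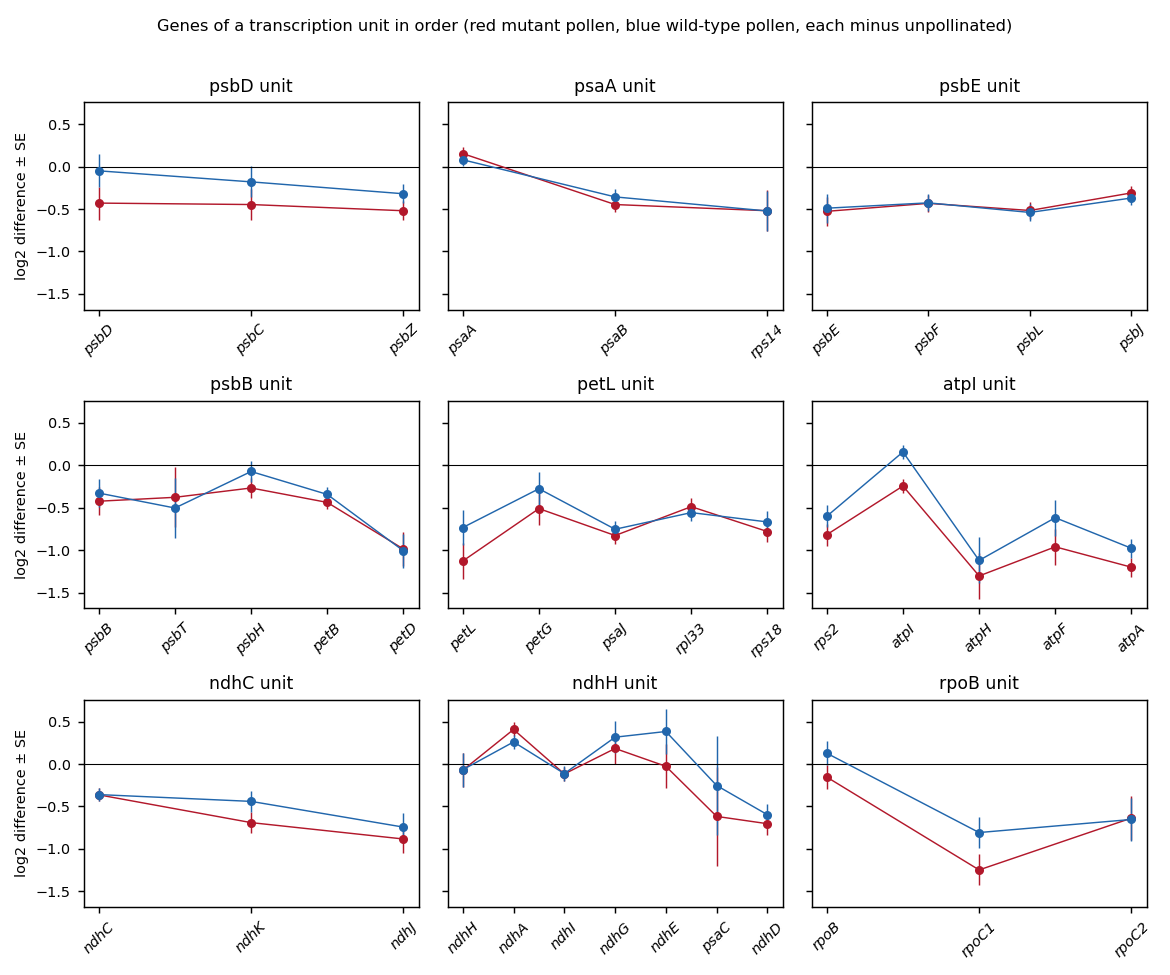
Log2 difference from unpollinated pistils (limma estimate ± SE, 3 arrays a group) for the genes of 9 plastid transcription units in their order, with mutant pollen in red and with wild-type pollen in blue. The psbE unit lies within −0.54 to −0.31 in both colours, whereas atpI lies above its neighbours in the atpI unit and the ndhH unit crosses 0.

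Mutant and wild-type pollen gave no called difference for any plastid probe set. In limma, 0 of 77 were lower and 0 higher with mutant pollen than with wild-type pollen (0.286% and 0.0264% of all probe sets, 65 and 6), and the lowest adjusted p was 0.132. At an unadjusted p under 0.05 there were 2, against 4.79% of all probe sets (1090). These were atpI, at −0.40 (95% interval −0.58 to −0.22, adjusted p = 0.132), and rpoC1, at −0.44 (−0.84 to −0.04, adjusted p = 0.998). All 3 mutant-pollen arrays lay below all wild-type-pollen arrays in atpI alone (5.23% of all probe sets) and above them in ndhA alone (4.73%).

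For psbA the difference between the pollens was −0.36 with an interval of −0.93 to 0.22. The intervals reached from 0.15 to 1.304 on either side of the estimate, with a median of 0.29. For 76 of 77 members the interval left out a value of −1, psaC being the exception, and for 49 it lay within 0.5 of 0 on both sides. The estimates were negative for 55 and positive for 22, with a median of −0.09, where that of all probe sets was 0. That median was −0.005 without wild-type-pollen array 1 and −0.14 without wild-type-pollen array 2 or 3.

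**Figure D4:**
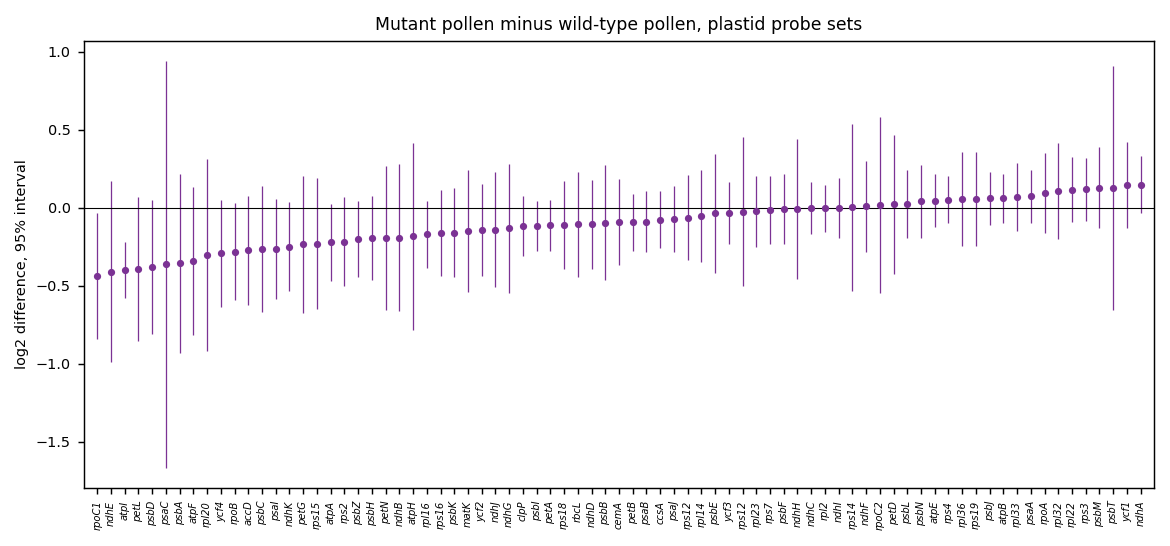
Log2 difference between mutant and wild-type pollen for each plastid probe set, from lowest to highest, with its 95% interval from limma (3 arrays a group). Estimates run from −0.44 (rpoC1) to 0.15 (ndhA), the interval of atpI lies farthest from 0, and that of psaC is the widest.

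Within a group the plastid probe sets shifted together from array to array. Wild-type-pollen array 1 was the highest of its group in 71 of the 77, with a median deviation of 0.19 from the group mean, where all probe sets had −0.017. Mutant-pollen array 2 was the highest of its group in 58 members (median deviation 0.10), and unpollinated array 3 in 50 (0.11), while unpollinated array 1 was the lowest in 43 (−0.09). The median SD over the members was 0.127 with mutant pollen, 0.196 with wild-type pollen and 0.184 in unpollinated pistils, against 0.1, 0.093 and 0.118 over all probe sets. Without wild-type-pollen array 1 the members called lower with wild-type pollen numbered 50, and without array 2 or array 3 they numbered 31. The labels give no extraction or scan batch for the arrays, and what moved with these arrays was not tested.

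**Figure D5:**
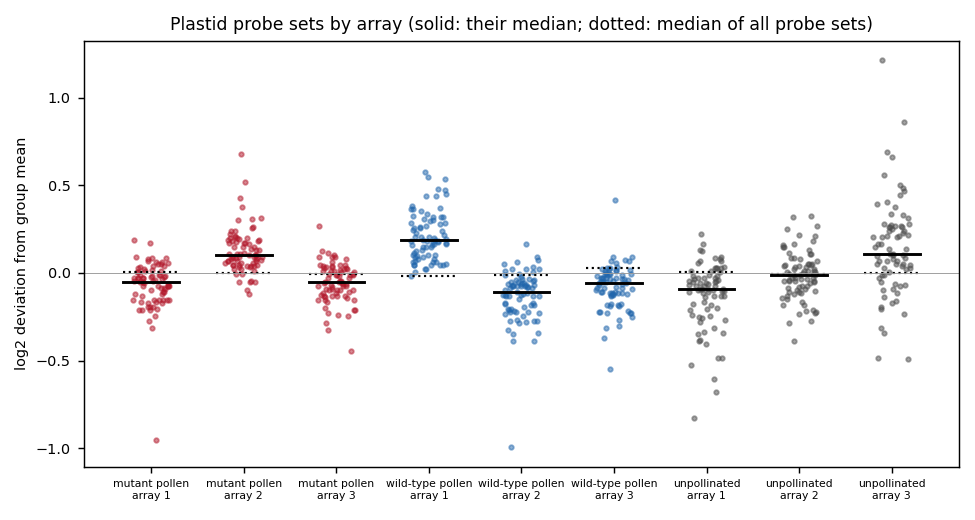
Deviation of each of the 77 plastid probe sets from its group mean (log2, points) in each of the 9 arrays, with their median (solid line) and the median over all probe sets (dotted line). The points of wild-type-pollen array 1 lie mostly above 0, and those of unpollinated array 3 spread most widely.

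Nuclear genes that serve the plastid were measured only in part, since the platform annotation lists few of them. Of 53 nuclear photosynthesis genes 9 were measured, and none was called higher. Of the 9, 6 were called lower with mutant pollen and 7 with wild-type pollen (66.7% and 77.8%, against 19.2% and 20.2% of all probe sets). The medians of the 9 were −0.54 and −0.55. Their summed intensity was 33618 to 37460 with mutant pollen, 34167.3 to 36272.3 with wild-type pollen and 47623.6 to 60175.7 in unpollinated pistils. The called ones with wild-type pollen ranged from LHCB4.2, a light-harvesting protein of photosystem II (−1.24 ± 0.10), to LHCB4.1, its close relative (−0.33 ± 0.11, adjusted p = 0.0305). PSAN, a nucleus-encoded photosystem I subunit on the same side of the membrane as plastocyanin, was lower by −1.10 ± 0.14 with mutant pollen and −1.20 ± 0.14 with wild-type pollen. ATPC1, for the gamma subunit of the ATP synthase whose plastid-encoded partner atpA fell in both groups, was not called (−0.07 in each).

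Of 23 nuclear regulators of plastid transcription only RPOTmp was measured, a phage-type RNA polymerase of plastids and mitochondria. RPOTmp had 6.05, 6.34 and 6.08 with mutant pollen, 6.24, 6.24 and 6.36 with wild-type pollen and 5.82, 5.83 and 5.70 in unpollinated pistils. All pollinated arrays lay above the unpollinated ones, with differences of 0.37 ± 0.09 (adjusted p = 0.00814) and 0.50 ± 0.09 (adjusted p = 0.00148). Of 23 nuclear genes for plastid ribosomal proteins 4 were measured (PRPS6, PRPS10, PRPL3 and PRPL5), and none was called in limma or at an unadjusted p under 0.05 with wild-type pollen, while PRPL5 reached an unadjusted p of 0.0258 with mutant pollen (0.23, adjusted p = 0.0596). Their medians were 0.06 with mutant pollen and 0.02 with wild-type pollen.

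The other organelle genome moved in the same direction. Of 23 mitochondria-encoded probe sets, some of them on the same gene, 15 were lower with mutant pollen (65.2%, against 19.2% of all probe sets). With wild-type pollen 13 were lower (56.5%, against 20.2% of all). In each group 1 was higher (4.35%, against 22.3% and 23.4% of all). It was a different probe set in each group, both on nad1 and both dim. The one called with mutant pollen had intensities of 17.6 to 24.1 over all arrays. The one called with wild-type pollen had 15.3 to 19.7, and 15.3 in every unpollinated array. The medians of the 23 were −0.60 with mutant pollen and −0.48 with wild-type pollen. nad4, for a subunit of respiratory complex I and the lowest of these, had 8.22, 8.85 and 8.19 with mutant pollen, 8.87, 8.20 and 8.43 with wild-type pollen and 9.76, 9.89 and 10.91 in unpollinated pistils. Its pollinated arrays all lay below the unpollinated ones, at −1.77 ± 0.30 with mutant pollen (adjusted p = 0.000924) and −1.69 ± 0.30 with wild-type pollen (adjusted p = 0.00112). A lower level of most probe sets was thus measured for both organelle genomes, and whether the plastid set differed from the mitochondrial set was not tested.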

How the data were processed

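ATH1 arrays of pistil RNA were compared in 3 groups of 3. The deposited values were intensities per probe set (linear, 6.4 to 27175.1), made by the authors with RMA, Affymetrix Expression Console and Partek per the submitters' processing notes, which give no versions. Log2 was taken, although log2 values had been expected. Of 22810 probe sets, 64 controls were left out and 22746 tested with limma 3.58.1 in R 4.3.3 (1 mean per group, all 9 arrays, 6 residual and 4.24 prior degrees of freedom, Benjamini-Hochberg adjustment, threshold 0.05). The p-values measure the spread between these arrays, whose number limits the precision. The platform annotation lists 1 gene for 13513 probe sets, several for 503 and none for 8730; no column lacked a sample. The members, complexes and related lists were chosen with earlier results of these data known. Values in every array are given for the lowest and highest wild-type-pollen difference of each complex, psbA, rbcL and members called higher; for related lists the lowest and highest called genes are named, and RPOTmp, PSAN, ATPC1 and nad4 were added after their values were seen. Mitochondrial genes were matched by symbol. No sequences were used here. On simulated data for wild-type pollen against unpollinated pistils (22746 probe sets, 200 changed), 47.8% of changes of 0.5 log2 units, 89.6% of 1 and all of 2 were recovered with 7 false calls. The simulated noise was independent between probe sets, whereas the plastid probe sets shifted together from array to array. In the real comparison 4596 probe sets were called lower and 5328 higher. These rates therefore need not hold for the real data. The 16 alternatives were 2 normalizations, a pseudocount of 16, leaving out probe sets under the 25th percentile of mean log2, a trended robust variance, only the groups compared, the replicate block and leaving out each of the 9 arrays.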

Additional observations from a re-analysis of the deposited data

Results flagged for a closer look

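atpI was the single member of 77 whose mutant-pollen arrays all lay on the other side of the unpollinated arrays from its wild-type-pollen arrays, below and above them. The share of all probe sets with that arrangement was not counted. The difference between mutant and wild-type pollen was −0.40 on the log2 scale and was tested in limma (adjusted p = 0.132, not past the threshold, and 0.0989 to 0.573 over the 16 alternatives).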

How the results depend on the processing

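Over the 16 alternatives, 38 of the 49 plastid calls with mutant pollen and 28 of the 48 with wild-type pollen were kept in each, and 13 and 12 uncalled members gained a call in at least 1. A single called member changed the sign of its estimate, rps4 with mutant pollen, and it lost its call there (0.046, adjusted p = 0.623, quantile normalization repeated). The same setting ended the calls of rpl2 and psaB in both groups, of rps3 with mutant pollen, and of rps4, psbM, psaI, petA, rpl16, psbZ, ccsA and atpE with wild-type pollen. The members called lower ranged from 39 to 51 with mutant pollen and from 31 to 50 with wild-type pollen when 1 array was left out, and the members called higher with wild-type pollen from 1 to 3. Making array medians equal moved the median of all probe sets to −0.099 with mutant pollen and −0.133 with wild-type pollen, and the members' median minus that of all probe sets stayed at −0.497 and −0.374. All probe sets called lower then numbered 6633 and 7579, and the share of calls that were higher was 35% and 32.2% (43.8% and 43.5% with quantile normalization repeated, 53.8% and 53.7% as reported). In that setting 1 member was higher with wild-type pollen, and medians with mutant pollen were −0.716 for probe sets listing both copies, −0.696 for other proteins, −0.726 for photosystem I, −0.543 for photosystem II and −0.596 for the large ribosomal subunit; with wild-type pollen they were −0.43 for other proteins, −0.493 for photosystem I, −0.55 for photosystem II and −0.476 for the large subunit. With quantile normalization repeated, probe sets listing both copies had −0.428 and −0.408, and the large subunit −0.402 with mutant pollen. Leaving out 1 array gave mutant-pollen medians of −0.805 to −0.387 for photosystem I, −0.55 to −0.375 for photosystem II, −0.576 to −0.257 for the small ribosomal subunit, −0.653 to −0.555 for both copies and −0.693 to −0.473 for other proteins, and wild-type-pollen medians of −0.453 to −0.18 for other proteins and −0.537 to −0.297 for photosystem I. Between mutant and wild-type pollen it gave −0.163 to −0.025 for other proteins, −0.115 to −0.007 for photosystem II, 32 to 69 of all probe sets called lower and 3 to 16 higher, and 11 were higher with only those groups fitted. No plastid probe set was called between the pollens under any alternative. The causes of these shifts were not tested. Correlations of same-numbered arrays ran from −0.162 to 0.313 over 9 pairs, and in 8 of 18 comparisons an array correlated best with its own number. With 3 arrays a group these values cannot settle whether a number marks a shared batch, which no label states. With the replicate block 48 members were lower with mutant pollen and 42 with wild-type pollen. Differences within an interval of about 0.29 could not be resolved for the typical member.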
